A study of Mus musculus with 6 samples.

Results

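The 8 AP-1 family genes Fos, Fosb, Fosl1, Fosl2, Jun, Junb, Jund and Atf3 were examined for binding of the transcription factor RUNX1 in mouse granulosa cells, the somatic cells that surround the oocyte. A RUNX1 peak was assigned to a gene when its summit lay inside the annotated gene body or within 50 kb of either end. This rule took in 141 of the 51515 peaks of the series. All 8 genes were found by symbol among 21887 protein-coding genes of NCBI RefSeq on GRCm38.p6, and no 2 of them share a window. Immature mice of a CBA x C57BL/6 F1 cross aged 21 days were primed with equine chorionic gonadotropin (eCG, 5 IU), a hormone that makes follicles grow. Human chorionic gonadotropin (hCG, 5 IU), due 46 h later, acts on the luteinising hormone receptor and sets off ovulation. Chromatin bound by a RUNX1 antibody was sequenced from 2 libraries of cells labelled pre-ovulatory (0 h) and 2 libraries of cells labelled peri-ovulatory (6 h after hCG). The described treatment, with hCG and collection 6 h after it, is given alike for the 0 h samples, which conflicts with their labels. Only the titles, the cell type and the time point label set the 0 h samples apart, and they are grouped by those here. A pooled input per time point was also sequenced. No genetic change is named for any group, and nothing says whether the 2 libraries of a time point came from separate animals, so any p-value measures the spread between these libraries only. The lists hold no expression values, so the labelled cell type was not tested against marker genes.

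AP-1 is a family of dimers built from basic leucine zipper (bZIP) proteins of the Fos and Jun groups, and it binds the sequence TGANTCA. Several of its genes are immediate early genes, which growth factors, cAMP and stress switch on without new protein synthesis. In the ovary the gonadotropin surge is known to induce AP-1 proteins in granulosa cells, and AP-1 sites are often found near RUNX sites in enhancers of other cell types. The questions asked here were whether RUNX1 sites lay at these genes in the 0 h libraries, whether more were called at 6 h, and where they lay.

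RUNX1 was called at the annotated start of several of these genes. Of the 7 members with a promoter in the RefSeq table, Atf3, Fosb, Junb and Jund had the summit of a replicated 6 h region in the 250 bases before the start. A replicated region here means overlapping peaks of the 2 replicates of a time point, merged, and its summit is that of its peak with the lowest p-value. Of all promoters in the table, 13.8% met the same rule. Atf3 also met it at 0 h, as did 0.715% of all promoters. These 4 promoters are shown 5′ to 3′ in the direction of the gene because they carry those summits (RefSeq, GRCm38.p6). They lie at chr1:191183334-191183583 on the minus strand for Atf3, chr7:19310046-19310295 on the minus strand for Fosb, chr8:84978749-84978998 on the minus strand for Junb and chr8:70697489-70697738 on the plus strand for Jund. For Fosb the promoter table takes its start at 19310045, which is 73 bp inside the outer gene end at 19310118 that is used for all other distances. For the other 6 members the starts are the same, and over the whole table they differ for 50.2% of promoters. Capitals mark a match on either strand to the motifs searched.
Atf3: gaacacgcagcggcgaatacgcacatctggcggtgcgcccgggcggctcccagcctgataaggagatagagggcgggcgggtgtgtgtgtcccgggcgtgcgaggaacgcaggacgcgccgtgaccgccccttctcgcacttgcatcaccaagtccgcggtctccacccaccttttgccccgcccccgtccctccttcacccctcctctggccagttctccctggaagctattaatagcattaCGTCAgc
Fosb: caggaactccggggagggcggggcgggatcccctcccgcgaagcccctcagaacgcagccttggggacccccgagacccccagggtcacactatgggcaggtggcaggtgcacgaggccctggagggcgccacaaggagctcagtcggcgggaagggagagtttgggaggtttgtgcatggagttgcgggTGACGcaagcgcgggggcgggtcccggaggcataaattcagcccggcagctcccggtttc
Junb: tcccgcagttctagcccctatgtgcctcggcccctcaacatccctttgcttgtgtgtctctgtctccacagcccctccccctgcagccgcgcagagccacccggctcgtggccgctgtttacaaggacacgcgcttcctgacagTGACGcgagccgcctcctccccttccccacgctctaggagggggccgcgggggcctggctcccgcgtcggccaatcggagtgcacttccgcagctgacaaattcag
Jund: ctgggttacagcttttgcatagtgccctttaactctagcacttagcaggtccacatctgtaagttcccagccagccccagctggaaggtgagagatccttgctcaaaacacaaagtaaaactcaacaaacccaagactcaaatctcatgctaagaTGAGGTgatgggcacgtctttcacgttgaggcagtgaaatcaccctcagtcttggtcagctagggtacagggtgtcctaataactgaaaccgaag

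The motifs searched on both strands were the RUNX core TGTGGT, a looser core TGNGGT that includes it, the AP-1 site TGANTCA, the cAMP response element TGACGTCA and its core TGACG, which the full element contains. The TGACG search was added after the sequences had been seen. TGTGGT was found in 0 of the 7 member promoters and in 12.4% of all 21263 promoters of protein-coding genes. TGNGGT was found in 2 of 7, with matches in Jund at -95 and in Jun from -162, against 38.5% of all promoters. Neither TGANTCA nor TGACGTCA was in any of the 7, and they were in 6.13% and 1.92% of all promoters. TGACG was in 4 of the 7 (Fos, Fosb, Junb and Atf3), with the first base of the match at -60 in Fosb, -106 in Junb and -7 in Atf3, counted back from the start in the promoter table, against 20.2% of all promoters. The Fosb match therefore lies inside the gene as annotated to its outer end. Over the whole table TGACG was in 36.6% of the 2925 promoters with a replicated 6 h summit and in 17.6% of the 18338 without. TGTGGT showed almost no such gap, at 12.2% with a summit and 12.4% without. TGANTCA went the other way, at 3.21% with a summit and 6.60% without. TGNGGT was in 42.5% with a summit and 37.8% without. TGACGTCA was in 4.92% of those with a summit, against 1.92% of all promoters. None of these gaps was tested. The motif hits are matches of letters in a window, not sites shown to be bound.

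Peaks of either 0 h library were called at 7 of the 8 genes, against 28.7% of all protein-coding genes. By library this was 5 members in 0 h replicate 1 and 7 in 0 h replicate 2. At 6 h all 8 had a replicated region, against 68.9% of all protein-coding genes. The lists held 6 peaks in the windows in 0 h replicate 1, 16 in 0 h replicate 2, 52 in 6 h replicate 1 and 67 in 6 h replicate 2, and the means were 11.0 ± 7.07 for 0 h and 59.5 ± 10.6 for 6 h (SD, n = 2 per time). Both 6 h values lay above both 0 h values, by a mean of 2.46 on the scale of log2(count + 1) (two-sided exact permutation, p = 0.333, n = 2), and 0.333 is the smallest p that 2 libraries against 2 can give. The whole lists were also longer at 6 h, with 948 and 3135 peaks at 0 h and 18761 and 28671 at 6 h, a log2 difference of 3.75. The windows therefore held a smaller share of the list at 6 h. The share was 0.633% (exact Clopper-Pearson 95% confidence interval 0.233 to 1.37) and 0.510% (0.292 to 0.827) in the 0 h libraries, and 0.277% (0.207 to 0.363) and 0.234% (0.181 to 0.297) in those of 6 h. The difference of -0.316 percentage points again had no overlap between the time points (exact permutation test, two-sided, p = 0.333). With each list restricted to the 948 peaks of lowest p-value, the windows held 6 and 4 peaks at 0 h and 5 and 4 at 6 h, so the higher number at 6 h was not seen in lists of equal length. The difference in share in those lists was -0.0527 percentage points, with overlap between the time points. The gap in share was thus not seen there either. The confidence intervals cover counting error only.

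**Figure D1:**
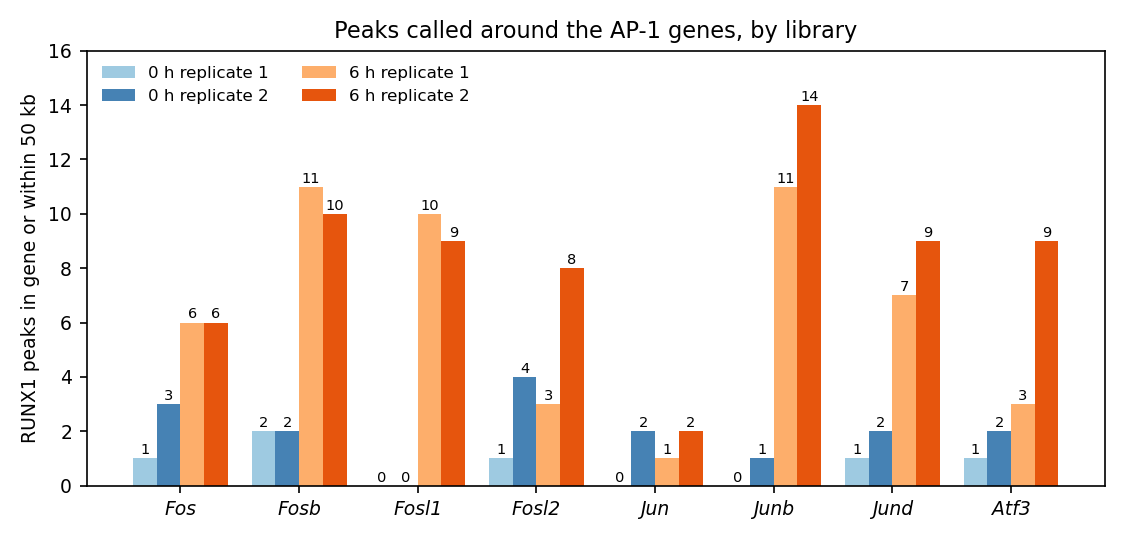
Number of RUNX1 peaks with a summit in each gene or within 50 kb of it, by library, 1 bar per library. Junb has the most peaks at 6 h (11 and 14, with Fosb also at 11 in replicate 1) and at most 1 at 0 h, Fosl1 has none at 0 h, and Jun has at most 2 in any library.

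By gene, both 6 h lists held more peaks than both 0 h lists at 6 of the 8 members, and 64.7% of all protein-coding genes met that rule. The exceptions were Fosl2, with 1 and 4 peaks at 0 h and 3 and 8 at 6 h, and Jun, with 0 and 2 at 0 h and 1 and 2 at 6 h. Fosl1, which encodes Fra-1, had no peak in either 0 h list. A peak of either 0 h library was present at 7 of 8 members, against 28.7% of all protein-coding genes. A replicated 0 h region was present at 5 of 8 members (Fos, Fosb, Fosl2, Jund and Atf3), against 8.76% of all genes. A replicated 6 h region was present at 8 of 8, against 68.9%. With 948 peaks per list the count was 4 members at 0 h and 4 at 6 h, against 6.41% and 6.85% of all genes, so the higher count at 6 h was not seen in lists of equal length. With a −log10 q of at least 20 it was 2 members at 0 h and 8 at 6 h, against 3.87% and 61.4% of all genes.

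The windows held 5 replicated regions at 0 h and 48 at 6 h. In lists of equal length there were 4 at 0 h and 4 at 6 h. At 6 h there were 29 in windows of 10 kb and 74 in windows of 100 kb. Of single peaks in place of replicated regions, 0 h replicate 1 had 6 and replicate 2 had 16. Of the 48 regions at 6 h, Junb had 11, with 9 at Fosb, 8 at Fosl1, 7 at Jund, 6 at Fos, 3 at Fosl2 and at Atf3, and 1 at Jun. The median over the 8 members was 6.5 regions, and over all protein-coding genes it was 2. The windows are not equally crowded, with 11 other protein-coding genes at Fosl1, 8 at Junb, 7 at Fosb, 5 at Jund, 1 at Atf3 and none at Fos, Fosl2 and Jun. The member was the nearest protein-coding gene for 28 of the 48 regions, and the other 20 lay nearer to, or inside, a neighbour. At Fos, Fosl2 and Jun every region had the member as its nearest protein-coding gene.

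**Figure D2:**
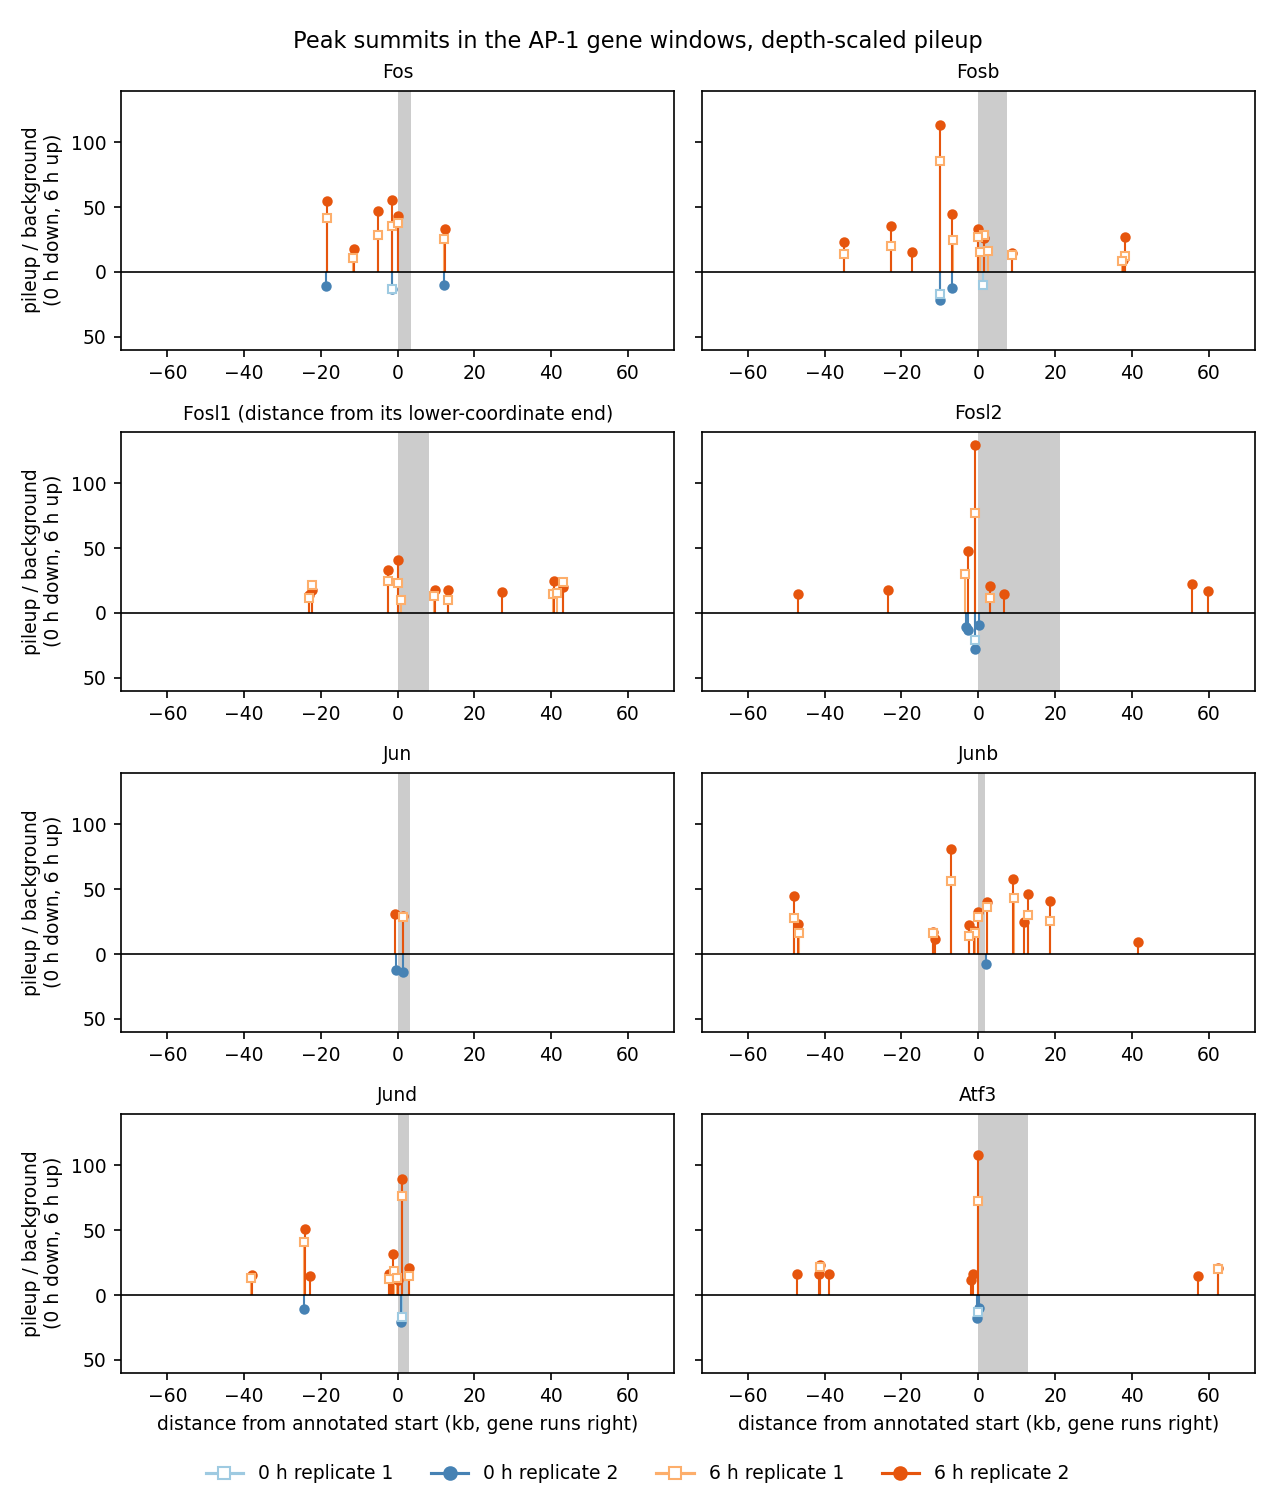
Summits of all peaks in the 8 windows, by distance from the annotated start in kb (for Fosl1 from its lower-coordinate end), with the gene body in grey. The height is the summit pileup divided by the genome-wide background of the library, drawn upward for 6 h and downward for 0 h, with open squares for replicate 1 and filled circles for replicate 2. The tallest 6 h peaks stand at the starts of Fosl2 and Atf3, inside Jund and 9999 bp before Fosb.

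Regions are described below by 3 quantities. The fold enrichment is the authors' ratio of reads piled up at the summit over the background expected locally, while the percentile is the rank of that fold within its own list. The fold depends on the depth of each library and input, so no difference between time points in the results here rests on it. The depth-scaled pileup is the number of reads at the summit, recovered from the fold and the p-value, divided by the genome-wide background of that library (2.77 and 2.65 reads at 0 h, 2.76 and 2.13 at 6 h), and it was compared across libraries. The lowest depth-scaled pileup of any peak was 7.22 and 7.17 in the 0 h lists, so a site without a 0 h peak may still have had reads up to about that level, or more where the local background is high.

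Fos, the partner of Jun in the classical AP-1 dimer, carried a row of RUNX1 regions on its upstream side. The summit of its highest-ranking 6 h region (chromosome 12, 85471984 to 85472801) lay 1572 bp before the start. The fold was 17.8 and 27.3 in the 6 h replicates, ranking at the 90.0 and 92.3 percentiles. This upstream site was the sole Fos region already replicated at 0 h, at 85472150 to 85472688, with a fold of 9.10 and 5.51, ranking at the 68.3 and 13.6 percentiles. The next, at 85468651 to 85469313 and 5058 bp before the start, had a fold of 17.0 and 26.2 and no 0 h peak. Further out, 18479 bp before the start, the region from 85454814 to 85456159 reached a fold of 15.2 and 17.8 and overlapped a peak of 0 h replicate 2 with a fold of 5.83. A region of 2269 bp at 85472983 to 85475251 covered the start, with a fold of 11.6 and 11.0 and no 0 h peak. By fold, the 3 highest-ranking Fos regions therefore lay upstream of its start, not on it. The local background was 8.04 and 7.45 reads at the start, against 3.70 and 2.86 at the region 5058 bp before it. By pileup the start region, with 104 and 92 reads, ranked at the 90.4 and 85.3 percentiles. The region 5058 bp before the start, with 79 and 100 reads, ranked at the 81.3 and 87.7 percentiles. By this measure the order of these 2 regions differed between the replicates. The remaining regions lay 11457 bp before the start and 8926 bp beyond the other end.

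Fosb encodes another Fos-group protein, known for its stable splice form in neurons. Its leading site, on chromosome 7 at 19319662 to 19320422, lay 9999 bp before the start and had a fold of 20.8 and 28.8 at 6 h, ranking at the 93.6 and 93.3 percentiles. At 0 h it was called at 19319964 to 19320303, with a fold of 7.23 and 10.1, ranking at the 42.8 and 83.4 percentiles. No other Fosb region was replicated at 0 h. Next by rank was 19332645 to 19333149, where the fold was 12.8 and 21.3 without a 0 h peak. This region lay nearer to Ercc1 than to Fosb. The third covered the start at 19309967 to 19310589, with its summit 68 bp before the outer gene end and a fold of 12.2 and 14.5. Its summits in both 6 h libraries fall in the promoter sequence shown above, and no 0 h peak overlapped it. Inside the gene the fold was 8.13 and 6.17 at 6 h over 19308245 to 19309000, which overlapped a peak of 0 h replicate 1 with a fold of 6.71.

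Fosl1 differed from the other Fos-group genes in having no 0 h peak, a difference that was not tested. Its strongest 6 h region, on chromosome 19 at 5447435 to 5448904, covered the lower-coordinate end of the gene with the summit 75 bp inside it. The fold was 12.6 and 19.7, ranking at the 76.8 and 84.1 percentiles. The next by rank, at 5490226 to 5491657 with a fold of 11.2 and 9.31, lay inside Cfl1. The third, at 5457029 to 5457690 with a fold of 8.09 and 10.2, lay inside Ccdc85b, 1413 bp from Fosl1. Only 2 of the 8 regions in the Fosl1 window had Fosl1 as the nearest protein-coding gene, the other being 2615 bp outside the gene with a fold of 5.71 and 7.33.

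Fosl2, which encodes Fra-2, had the region with the highest mean percentile over the 6 h replicates, although Atf3 ranked higher in replicate 1. On chromosome 5 at 32134893 to 32136977, it ran from upstream across the start, with its summit 892 bp before the start. The fold in the 6 h libraries was 28.2 and 44.6, at the 97.6 and 98.2 percentiles. In the 0 h libraries the site was called at 32135286 to 32135768 with a fold of 9.75 and 14.4, and the second value ranked at the 95.7 percentile. Fosl2 thus carried the strongest 0 h site among the members as well. A second region, at 32132875 to 32134674 and 2660 bp before the start, had a fold of 14.6 and 17.3. In 0 h replicate 2 it matched separate peaks at 32133106 to 32133444 and 32133688 to 32133982, with a fold of 7.18 and 7.86. The third lay inside the gene at 32139395 to 32139951, 3182 bp after the start, with a fold of 6.38 and 11.7 and no 0 h peak. In 0 h replicate 2 a peak also lay on the start itself, at 32136427 to 32136817 with a fold of 6.91, which at 6 h is inside the larger region.

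Among the Jun-group genes, Jun had the fewest regions, and its leading region ranked lowest. Its 1 replicated 6 h region, on chromosome 4 at 95049924 to 95053425, covered the gene start and most of the gene over 3502 bp. In 6 h replicate 1 it was a single peak with a fold of 4.63, at percentile 4.32 of the list. In 6 h replicate 2 it was split into a peak inside the gene with a fold of 4.70 and a peak 602 bp before the start with a fold of 13.5, at percentile 66.1. The low fold inside the gene stood beside a high local background of 16.1 and 12.4 reads in the 2 libraries, where the pileups of 78 and 62 reads ranked at the 80.8 and 68.8 percentiles by pileup. In 0 h replicate 2 the same positions had a fold of 5.26 inside the gene and 8.40 at 420 bp before the start, and 0 h replicate 1 had no peak there.

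Junb, a Jun-group protein often opposed to Jun in growth control, had the most 6 h regions and no replicated 0 h region. Its leading region, on chromosome 8 at 84985352 to 84986538, lay 7020 bp before the start, with a fold of 23.5 and 35.9 in the top ranks of both lists (percentiles 95.6 and 96.5). It had no 0 h peak, although its depth-scaled pileup was 56.2 and 81.2 at 6 h. The nearest protein-coding gene to it was Hook2, at 3008 bp. The second, at 84969178 to 84970090, lay 5 bp from Prdx2 and 7292 bp beyond the far end of Junb, with a fold of 22.5 and 26.2 and no 0 h peak. The third lay 326 bp beyond that far end, at 84975717 to 84976904, with a fold of 20.9 and 21.8. This was the only region of the window with a 0 h peak, in replicate 2 alone, with a fold of 5.91. The start itself was covered by a region of 2007 bp at 84977085 to 84979091, with a fold of 12.5 and 13.1, whose summits in both libraries fall in the promoter shown above.

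Jund, the Jun-group gene that is expressed in most tissues without a stimulus, had its leading region inside the gene. On chromosome 8 at 70698290 to 70700377, with the summit 1030 bp after the start, it had a fold of 16.3 and 18.5, ranking at the 87.6 and 82.0 percentiles. At 0 h it was called at 70698515 to 70699133 with a fold of 5.84 and 6.63, ranking at the 19.7 and 35.3 percentiles. The second region, at 70673005 to 70674696, lay inside Lsm4, with a fold of 13.7 and 16.9, and overlapped a peak of 0 h replicate 2 with a fold of 5.53. The third, at 70696409 to 70696846, lay 1147 bp before the start, with a fold of 10.6 and 17.4 and no 0 h peak. The region with a replicate 1 summit in the promoter shown above, at 70696994 to 70698036, was the lowest-ranking of the window, with a fold of 6.53 and 6.02.

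Atf3 encodes a stress-induced bZIP protein of the ATF/CREB group that can pair with Jun proteins. Its leading region, on chromosome 1 at 191182363 to 191184466, covered the start, with the summit 171 bp before it. The fold was 30.5 and 35.1 at 6 h, ranking at the 98.2 and 96.2 percentiles. At 0 h the site was called at 191183362 to 191183735, with a fold of 7.13 and 8.05, ranking at the 40.7 and 64.0 percentiles. The summits of all 4 libraries at this site fall in the promoter sequence shown above. In 0 h replicate 2 a separate peak at 191183033 to 191183255, just inside the gene, had a fold of 6.25. The other 6 h regions lay 41155 bp before the start, with a fold of 7.58 and 8.04, and 49302 bp beyond the far end, with a fold of 4.98 and 4.96, where Batf3 is the nearest protein-coding gene.

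Each of the 5 regions called at 0 h was also the highest-ranking 6 h region of its gene. These 5 sites, at Fos, Fosb, Fosl2, Jund and Atf3, were called in all 4 libraries, which allowed their depth-scaled pileup to be compared. Atf3 gave 13.4 and 17.4 in the 0 h libraries and 72.8 and 108 at 6 h, with means of 15.4 ± 2.83 and 90.4 ± 24.9 (SD, n = 2). The groups did not overlap there. At Fosb the values were 17.3 and 21.9 in the 0 h libraries and 85.9 and 114 at 6 h. At Jund they were 17.0 and 21.1 in the 0 h libraries and 76.8 and 89.2 at 6 h. These sites too were higher in both 6 h libraries. Fosl2 had 20.9 and 27.5 in the 0 h libraries and 77.2 and 130 at 6 h, the highest value in each library except 6 h replicate 1. Fos had the lowest, with 13.4 and 13.2 in the 0 h libraries and 35.1 and 55.4 at 6 h, and Atf3 shared the value of Fos in 0 h replicate 1. Both 6 h libraries were above both 0 h libraries at all 5 sites. The geometric mean at 6 h was 5.82 times that at 0 h for Atf3, 5.07 times for Fosb, 4.37 times for Jund, 4.16 times for Fosl2 and 3.32 times for Fos. Each site gave p = 0.333 by two-sided exact permutation, the smallest value possible here. The median over the 5 sites was 2.13 on the log2 scale.

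**Figure D3:**
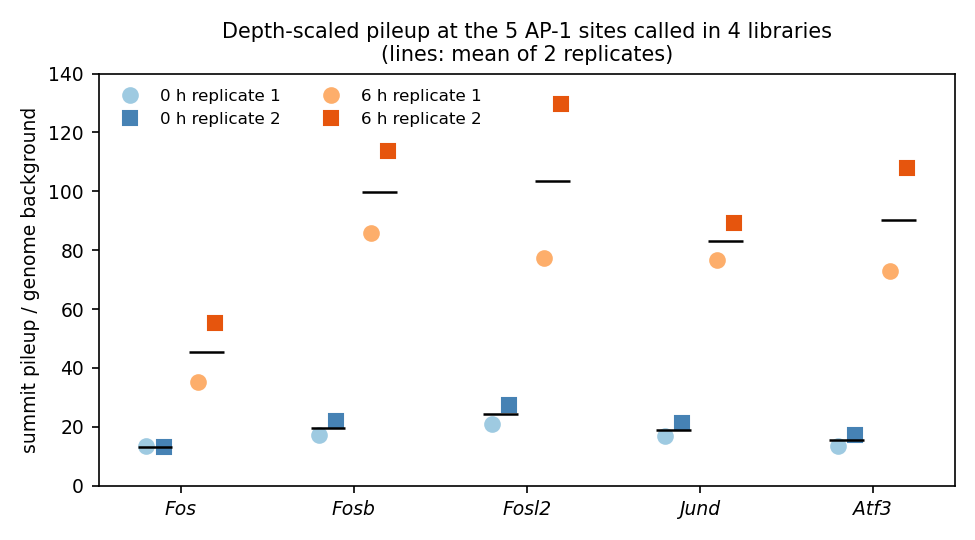
Depth-scaled pileup (reads at the summit divided by the genome-wide background of the library) at the 5 sites called in all 4 libraries. Points are libraries and lines the means of 2 replicates, and at every site both 6 h points lie above both 0 h points.

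The same direction held for most sites of the series. Of the 795 sites called in all 4 libraries, 91.2% had both 6 h values above both 0 h values, and the median log2 difference was 1.85. Against these 795 sites, the difference at Fos was larger than at 44.0% of them, at Fosl2 60.3%, at Jund 65.2%, at Fosb 78.6% and at Atf3 88.3%. The 5 sites therefore lay within the spread of the other sites, whose 5th and 95th percentiles were 0.33 and 2.77. The differences among the 5 sites were not tested, and the 6 h ranges of Atf3, Fosb, Fosl2 and Jund overlap one another. The 6 h values of Fos lay below those of the other 4 sites in both libraries.

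**Figure D4:**
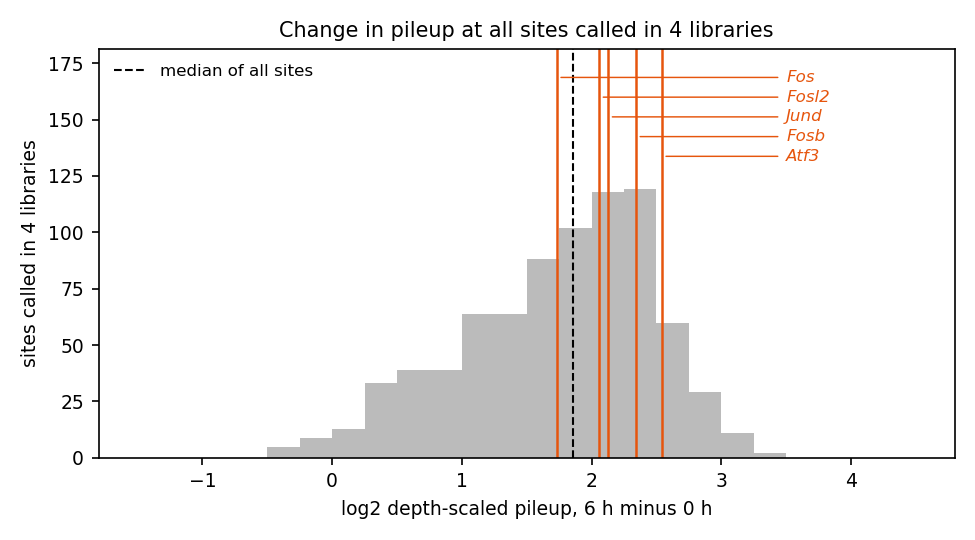
Distribution of the log2 difference in depth-scaled pileup, 6 h minus 0 h, over the 795 sites called in all 4 libraries (grey bars), with the 5 AP-1 sites as lines and the median of all sites dashed. The AP-1 sites run from 1.73 at Fos to 2.54 at Atf3 and lie within the distribution.

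Sites also called at 0 h made up a minority of the 6 h regions. Of the 48 regions at 6 h, 13 overlapped a 0 h peak, or 27.1% (exact 95% confidence interval 15.3 to 41.8), against 16.5% of all 17190 replicated 6 h regions. This interval and those below treat the 48 regions as independent, although they lie in 8 windows of the same libraries. They cover counting error only and are no test against the share of all regions. Without 0 h replicate 2, the longer of the 0 h lists, 6 of the 48 did. The count was 2 of 44 with 50% of both intervals shared, 8 of 34 with summits within 100 bp, 5 of 34 with a −log10 q of at least 20 and 3 of 4 in lists of equal length. No share over all regions is given here for these alternatives or without 0 h replicate 2, so these counts cannot be set against the 16.5%. The 5 regions that were replicated at 0 h had mean 6 h percentiles of 84.8 to 97.9, with a median of 93.4. The 8 that overlapped a peak of 1 0 h library had a median of 63.8, and the 35 without a 0 h peak had a median of 37.9, with Junb highest at 96.0. The same 3 classes had medians of 91.7, 81.2 and 54.4 over all replicated 6 h regions.

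RUNX1 regions reached the ends of every member. At 6 h each of the 8 genes had a replicated region whose summit was no more than 1 kb from an end of the gene, against 37.3% of all protein-coding genes. At 0 h this was so for 3 of 8 (Fosl2, Jund and Atf3), against 1.49%. For Jun the 6 h count rests on the summit of replicate 2, since that of replicate 1 lay 1434 bp inside the gene. At Jund the 0 h summits lay 994 bp from the start in replicate 2 and 1012 bp in replicate 1, close to the limit. In all, 11 of the 48 regions, or 22.9% (exact 95% confidence interval 12.03 to 37.31), had their summit within 1 kb of an end of the member. These were 3 at Junb, 2 at Jund and 1 at each of the other 6 genes. Within 1 kb of an end of any protein-coding gene lay 24 of the 48, against 45.1% of all replicated 6 h regions.

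Broad regions, of 2 kb or more, were found at 6 of the 8 genes, against 3.01% of all protein-coding genes. Of the 48 regions at 6 h, 6 were this wide, or 12.5% (exact 95% confidence interval 4.73 to 25.2), against 1.36% of all replicated 6 h regions. They were the regions at the starts of Fos, Fosl2, Jun, Junb and Atf3 and the region inside Jund, 1 for each gene, with widths of 2007 bp at Junb to 3502 bp at Jun. The widest region below that limit was the second of Fosl2, at 1800 bp. The limit of 2 kb was set with these widths known, so the count is a description and its interval is no test against the 1.36%.

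Relatives of AP-1 were counted in the same way. The list is not fully separate from the members, since the 6 h region 12051 bp from Batf3 is counted for Batf3 and for Atf3. Of 18 other bZIP genes (the Batf, Maf and Atf/Creb groups, Jdp2 and Nrl), all 18 had a replicated 6 h region within the same window, against 68.9% of all genes, and 2 had 1 at 0 h, or 11.1%, beside the 8.76% of all genes. These 2 were Atf4 and Creb1. Atf4, a regulator of the amino acid stress response, had a 0 h region inside the gene on chromosome 15 at 80255302 to 80255906 with a fold of 7.32 and 7.80, and a 6 h region there with a fold of 21.9 and 19.7. Creb1, the main effector of cAMP at response elements, had a 0 h region whose summit was 119 bp outside the gene (chromosome 1, 64532269 to 64532978), with a fold of 7.69 and 14.5, and a 6 h region with a fold of 17.5 and 27.7. Of 16 kinases and factors upstream of AP-1 (MAP kinases and their kinases, ribosomal S6 kinases, Srf and the Elk factors), all 16 had a replicated 6 h region and 0 had a replicated 0 h region, beside the same 68.9% and 8.76% of all genes. The median number of 6 h regions was 2.5 for the bZIP relatives and 3 for the upstream genes, against 6.5 for the 8 members. These medians were not compared by a test.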

How the data were processed

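Per the submitters' processing notes, reads were aligned to mm10 (the UCSC name of GRCm38) with Bowtie2 2.2.5 and peaks were called with MACS2, whose version and settings are not given in the sources used here. The authors deposited 1 peak list per ChIP library. The deposited fold enrichment (a ratio), the −log10 p-value, the −log10 q-value and the score were made by the authors; the score was not used. The lowest −log10 p was 9.01 to 9.18, and reads had 75 nt.

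The pileup was recovered by solving the deposited fold and p-value for a whole number of reads (pseudocount 1, misfit in −log10 p at most 0.005), which solved 100% of peaks. Its most frequent background is the genome-wide level, which was 2.13 to 2.77 reads and stands for depth. Peaks sharing 1 bp were merged. Coordinates count from 1. The gene strand came from the promoter table and was not used for Fosl1. Tests were exact permutations over the 4 libraries. The members and lists were chosen with earlier results of these data known. All 8 members are named, with every replicated 0 h region, the 3 highest-ranking 6 h regions per gene, and listed relatives that had a 0 h region. Other regions were named after their values were seen. Alternatives covered the window, the q-value limit, list length, overlap rule, gene assignment, scaling and each library. The scripts (Python 3.11.15, pandas 2.3.3, scipy 1.17.1) were tested on simulated data. The inputs were not analysed here.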

Additional observations from a re-analysis of the deposited data

How the results depend on the processing

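The number of peaks in the windows kept its higher mean at 6 h under every alternative run except lists of equal length, where the log2 difference was -0.11. In those lists the difference in share was -0.0527 percentage points, with overlap between the time points. The same restriction gave 4 members with a replicated 6 h region, 4 such regions at 6 h and 3 of those 4 overlapping a 0 h peak. A −log10 q of at least 20 left 2 members with a replicated 0 h region, 2 such regions, and 5 of 34 regions at 6 h overlapping a 0 h peak. The number of 6 h regions was 29 in windows of 10 kb, 74 in windows of 100 kb and 28 with the member as nearest protein-coding gene. The overlap with 0 h peaks was 8 of 34 with summits within 100 bp and 2 of 44 with 50% of both intervals shared. No share over all regions is given beside these alternative counts of overlap. The share of regions near a member's end was 47.9% within 5 kb.

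With 1 library of a time point left out, regions cannot be replicated, so the peaks of the other library were counted in their place and are not comparable with the 5 and 48 regions. This gave 6 to 16 peaks at 0 h, 52 to 67 at 6 h, and 5 to 7 members with a peak at 0 h and 8 to 8 at 6 h. Between 6 and 14 of the 6 h regions, or peaks, overlapped a 0 h peak. The log2 difference in peak number ran from 1.82 to 3.10, the difference in share from -0.377 to -0.255 percentage points, and the median log2 difference in pileup from 1.91 to 2.43. The sites change with the library left out, with 12 sites without 0 h replicate 1 (1.91), 6 without 0 h replicate 2 and 5 without either 6 h replicate. The authors' fold in place of the scaled pileup, which is not on a common scale across the lists, gave 1.58, and the unscaled pileup gave 1.97.

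With the replicate block (sign-flip test within the shared numbers) the 3 differences were 2.46, -0.316 and 2.13, with p = 0.5 (exact), the smallest it can give. Over the 795 shared sites the deviations of same-numbered libraries correlated at -0.198. A crossed pairing, added after the data were seen, left 0 of the 3 differences past the threshold, as did the other fits. Without the block the exact test cannot go below p = 0.333, so its p-values say nothing about stability.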
